A study of Mus musculus with 5 samples.

Results

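Germline and meiosis genes were followed in mouse embryonic stem cells depleted of Tet1, an enzyme that converts methylated cytosine in DNA to its hydroxymethylated form. The set was a list of 38 genes named for their roles in germ cells, and 33 of them were found on the array among 18193 genes. Of these 33, 27 were kept for comparison because their value exceeded the 40th percentile of an array on at least 1 of the 5 arrays. Over the whole array 13619 genes were kept by that filter. The 6 genes that were never above it were Brdt, Mov10l1, Nobox, Tdrd1, Tdrd9 and Tex101, and the 5 genes for which no probe set carried the symbol alone were Fkbp6, Nanos2, Nanos3, Rpl10l and Tdrd6.

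The 5 samples, 1 array each, came from a pair of established mouse stem cell lines. J1 cells, grown on fibroblast feeders, carried either a control siRNA or an siRNA against Tet1 and were collected 4 days after transfection. E14 cells, grown without feeders, carried a lentiviral scrambled hairpin, Tet1 shRNA3387 or Tet1 shRNA2863 and were collected after 4 days under puromycin. The lines also differ in feeders and in the depletion reagent, and the contributions of line, feeders and reagent cannot be told apart. No group has a replicate, differences between single arrays carry no error, and all values and differences below are on the log2 scale of the deposited probe set values.

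Tet1 was lower on each depleted array, with differences of -2.54 for the siRNA, -1.71 for shRNA3387 and -0.89 for shRNA2863. Tet2 differed by -1.13, -0.19 and -0.17 in the same order, and Tet3 was under the 40th percentile on all arrays. The stem cell identity of the cultures was checked on 10 markers, all above the 40th percentile on every array. Their mean level was 11.01 in J1 control and 10.46 in J1 Tet1 siRNA cells, and 11.14, 11.09 and 11.04 in E14 cells with the scrambled hairpin, shRNA3387 and shRNA2863. Of 13 fibroblast markers, Dcn, Fap and Postn were under the 40th percentile on all arrays, and 10 were kept. Of these 10, 1 was at least 1.5-fold lower in E14 scramble than in J1 control cells and 0 were higher. Among all kept genes 13.4% were lower and 9.69% higher. The median difference of the 10 markers was 0.03. The 1 lower marker was the collagen gene Col1a2, which read 6.24 and 5.95 on the J1 arrays and 3.59 to 3.62 on the E14 arrays.

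Genes of the germline make the proteins with which germ cells protect their genome and carry out meiosis. They include RNA-binding proteins such as Dazl and Ddx4, the synaptonemal complex that holds paired chromosomes together, cohesin subunits used only in meiosis, recombination enzymes, and the piRNA pathway, in which small RNAs bound by Piwi proteins guide the silencing of transposons. In somatic cells the promoters of many of these genes are rich in CpG and methylated. In embryonic stem cells they are also held down by a Polycomb complex that contains Mga, Max and E2f6, which bind E-box and E2F sequences, and by histone H3 lysine 9 methylation. DNA methylation was not measured on these arrays.

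The set was not uniformly silent in these cells. In J1 control cells 25 of the 33 measured genes were above the 40th percentile (75.8%, against 71.8% of all genes), and in E14 scramble cells 24 were (72.7%, against 72.1%). A value over 6, about the median of all kept genes, was reached by 9 of the 33 genes on each control array (27.3%), fewer than the 39.6% and 38.5% of all genes in J1 control and E14 scramble cells. On all 5 arrays 23 genes were above the percentile. Close to it were Rec8, a meiotic cohesin kleisin, which read 3.03 to 3.16, and the oocyte factor Figla, at 2.97 to 3.45; Mov10l1, a piRNA helicase, lay just under it at 2.95 to 2.97. The 6 genes never above the percentile read between 2.13 and 2.97, and none of them varied by more than 0.15 over the 5 arrays. The genes over 6 were in part different on the control arrays. Sohlh2 and Tex14 were over 6 in J1 control alone, and Dazl and Tex15 in E14 scramble alone. Sohlh2 lay close to that cutoff, at 6.21 in J1 control and 5.94 in E14 scramble cells. The second Dazl probe set read 5.58 and 4.87 on these arrays, under 6 on both and lower in E14. The list was drawn up as genes silenced by methylation, and the signal of the genes over 6 goes against that name in these cells. The listed genes are therefore called germline and meiosis genes here.

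**Figure D1:**
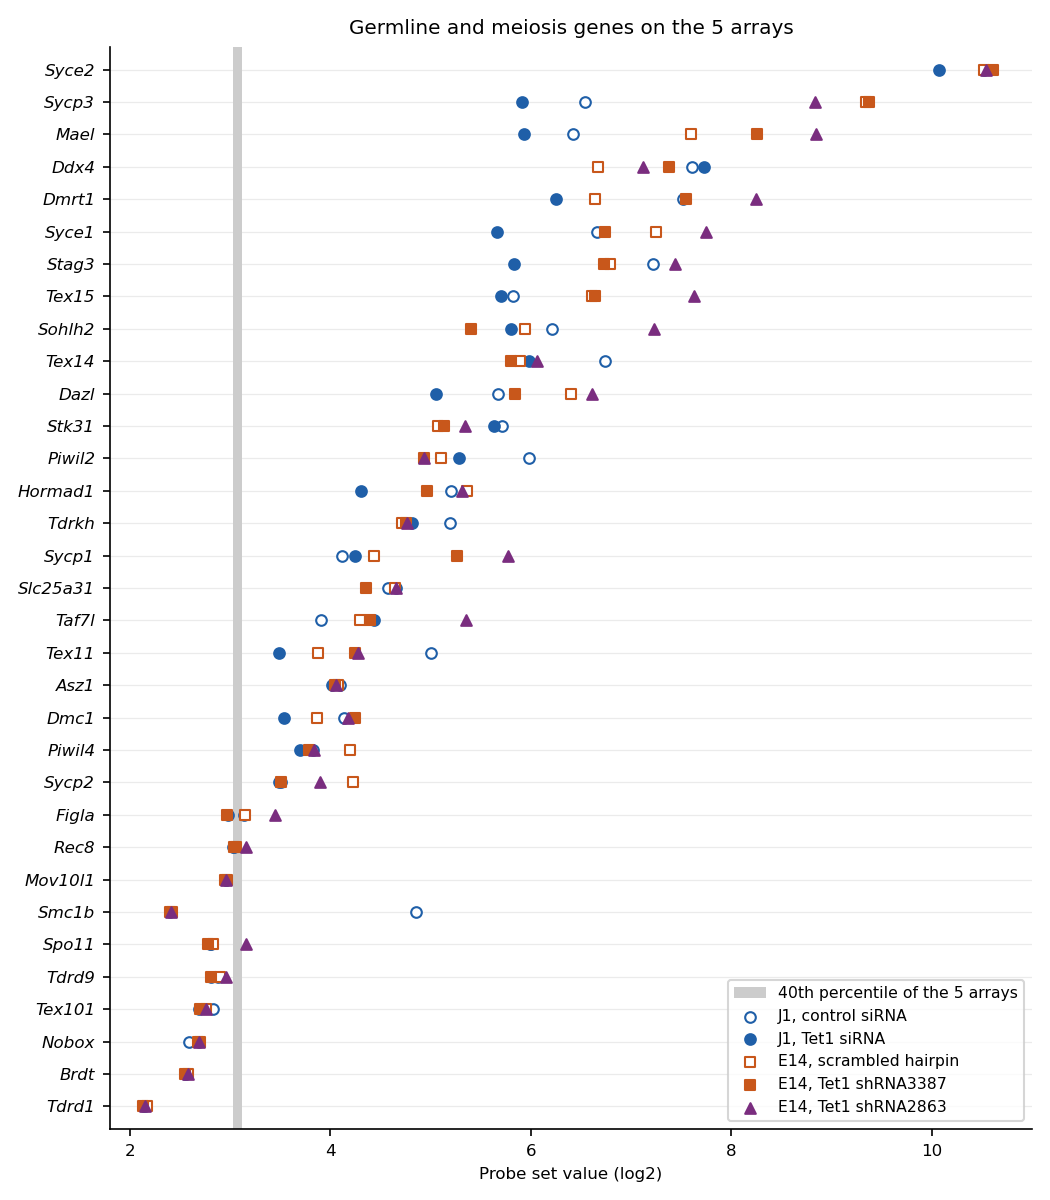
Probe set values on the log2 scale (horizontal axis) of the 33 germline and meiosis genes with a probe set, ordered by their mean over the 5 arrays, with 1 symbol for each array and a grey band for the range of the arrays' 40th percentiles. Syce2 stands above 10 on every array, Sycp3 and Mael are higher on the E14 arrays, and Smc1b is above the band on the J1 control array alone.

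The highest level belonged to Syce2, a central element protein of the synaptonemal complex. It read 10.52 and 10.07 in J1 control and Tet1 siRNA cells and 10.52, 10.61 and 10.54 in E14 cells with the scrambled hairpin, shRNA3387 and shRNA2863. Next by mean over the arrays were Sycp3, Mael, Ddx4, Dmrt1, Syce1, Stag3, Tex15, Sohlh2 and Tex14, in that order. Levels of different genes come from different probe sets, so this order describes array signal and not transcript number.

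The promoters of the set were rich in CpG and in E-boxes. RefSeq windows of 300 bases (250 before and 50 after the start, assembly GRCm38.p6) were at hand for 32 of the 38 genes, 22 of them kept, and the first window listed was used for each gene. They held a median of 19 CpG dinucleotides, against 7 over 27025 genes. The E-box CACGTG, which reads the same on both strands, was present in 14 of 32 windows (43.8%), against 7.24% of all genes. The E2F6 site GCGGGA or its reverse complement TCCCGC was present in 13 (40.6%), against 20.0%, and both motifs in 7, against 2.05%. Among windows with at least 15 CpG, the E-box was found in 13 of 24 members (54.2%) and 11.5% of all genes, and the E2F6 site in 12 of 24 members and 45.2% of all genes. No E-box overlapped an E2F6 site in the members' windows. Among kept genes with a window, the E2F6 site was in 6 of the 8 that were at least 1.5-fold lower in J1 with Tet1 siRNA and 6 of the other 14. Smc1b is among these 8 and has the site. It was kept through the J1 control array alone, so it had to be lower with Tet1 siRNA. The E-box was in 3 of those 8 and 6 of the other 14. Of the 5 that were at least 1.5-fold higher with shRNA2863, the E-box was in 4, and in 5 of the other 17. The E2F6 site was in 3 of those 5 and 9 of the other 17. Dmrt1, Tex11, Tex15 and Piwil2, each beyond 1.5-fold in a depletion, had no window and are not in these counts. These counts are descriptions without a test, and a motif match is not evidence of binding.

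**Figure D2:**
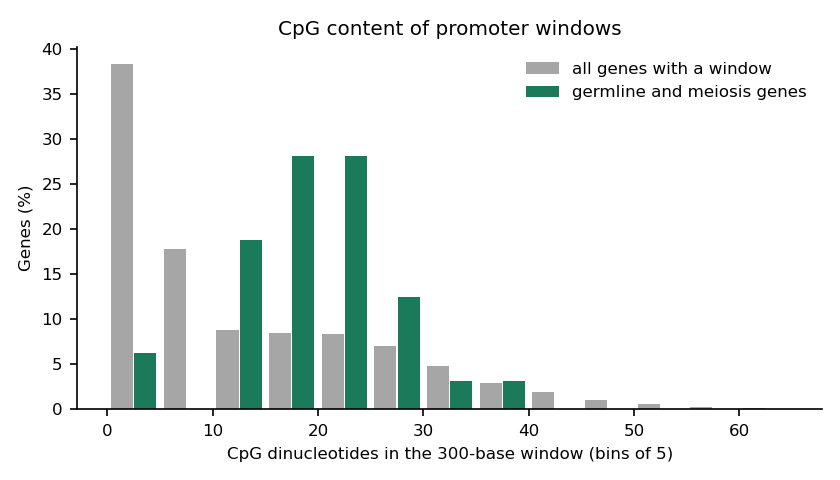
Share of genes (vertical axis, percent) by the number of CpG dinucleotides in the 300-base promoter window (horizontal axis, bins of 5), for the 32 germline and meiosis genes with a window (green) and all 27025 genes (grey). Most of the germline and meiosis genes hold between 10 and 30 CpG, around their median of 19, while the median of all genes is 7.

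The 250 bases before the start are printed for the genes that differed by at least 2-fold in a depletion or between the control arrays and had an E-box in the window, and for Smc1b, which had the largest difference in J1 cells and no E-box. They were chosen with these values known. Capitals mark E-boxes and E2F6 sites, each sequence reads 5′ to 3′ on the gene's own strand, and the build is GRCm38.p6. Mael lies at chr1:166238745-166238994, minus strand; Sycp1 at chr3:102936101-102936350, minus strand; Stag3 at chr5:138280259-138280508, plus strand; Sycp3 at chr10:88459337-88459586, plus strand; Taf7l at chrX:134476491-134476740, minus strand; and Smc1b at chr15:85131958-85132207, minus strand.
Mael: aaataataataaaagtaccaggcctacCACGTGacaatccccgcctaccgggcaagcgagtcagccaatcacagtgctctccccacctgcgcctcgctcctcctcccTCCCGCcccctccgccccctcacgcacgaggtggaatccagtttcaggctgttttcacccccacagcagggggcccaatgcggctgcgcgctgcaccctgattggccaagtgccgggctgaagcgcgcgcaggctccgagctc
Sycp1: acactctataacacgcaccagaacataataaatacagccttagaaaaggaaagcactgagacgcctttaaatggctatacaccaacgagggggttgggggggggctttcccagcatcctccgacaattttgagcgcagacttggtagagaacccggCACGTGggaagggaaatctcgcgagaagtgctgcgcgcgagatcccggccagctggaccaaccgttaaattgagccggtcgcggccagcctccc
Stag3: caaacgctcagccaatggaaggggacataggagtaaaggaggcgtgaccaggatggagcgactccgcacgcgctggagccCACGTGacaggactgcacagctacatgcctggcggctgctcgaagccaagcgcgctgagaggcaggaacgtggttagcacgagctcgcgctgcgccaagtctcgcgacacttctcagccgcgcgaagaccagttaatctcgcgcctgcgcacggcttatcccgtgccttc
Sycp3: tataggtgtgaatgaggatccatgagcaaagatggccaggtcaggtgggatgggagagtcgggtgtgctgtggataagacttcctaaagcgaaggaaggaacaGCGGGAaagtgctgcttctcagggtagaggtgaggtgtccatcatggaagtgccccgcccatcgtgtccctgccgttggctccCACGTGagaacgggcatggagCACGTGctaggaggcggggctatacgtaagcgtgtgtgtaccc
Taf7l: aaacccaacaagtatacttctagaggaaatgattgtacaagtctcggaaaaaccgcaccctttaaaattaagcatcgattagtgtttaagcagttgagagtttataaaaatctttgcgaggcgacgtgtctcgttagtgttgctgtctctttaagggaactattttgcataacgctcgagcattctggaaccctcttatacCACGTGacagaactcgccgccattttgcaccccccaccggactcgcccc
Smc1b: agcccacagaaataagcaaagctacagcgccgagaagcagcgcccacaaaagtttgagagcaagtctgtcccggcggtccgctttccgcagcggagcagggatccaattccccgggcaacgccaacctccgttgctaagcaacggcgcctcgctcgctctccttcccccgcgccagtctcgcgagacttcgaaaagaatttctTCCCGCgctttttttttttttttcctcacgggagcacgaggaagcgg
Sycp3 carries 2 E-boxes and 1 E2F6 site, and Mael 1 E-box and 2 E2F6 sites, 1 of which lies after the start and is not printed. Sycp1 and Stag3 each have a further E2F6 site at or after the start. Smc1b has 1 E2F6 site and Taf7l 1 E-box.

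Before any depletion, the lines differed in which of these genes were high. In E14 scramble cells 6 of the 27 kept genes were at least 1.5-fold higher than in J1 control cells, where 9.69% of all kept genes were, and 7 were at least 1.5-fold lower, where 13.4% were. The median difference was 0.01 over the members and 0.02 over all kept genes, so the members' median lay at that of all kept genes. The balance over all genes moves with the scaling: after quantile normalization 10.1% were lower and 12.8% higher in E14, and after median centring 15.8% and 8.30%.

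Higher in E14 was above all Sycp3, a protein of the chromosome axis in meiosis, which read 6.54 in J1 control and 9.34 in E14 scramble cells, 6.96-fold higher. All 3 E14 arrays, at 8.84 to 9.37, lay above both J1 arrays. Mael, a piRNA pathway protein that restrains transposons, read 6.42 and 7.60 on the control arrays, and its values on the E14 arrays also all exceeded those on the J1 arrays. Tex15, required for meiotic recombination, differed by 0.79, Sycp2, the partner of Sycp3 in the axis, by 0.74, and Syce1, another central element protein, by 0.59. Dazl, an RNA-binding protein of early germ cells, differed by 0.73 in its brighter probe set and by -0.71 in the other, so its direction depends on the probe set.

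Among the genes lower in E14, Smc1b, the meiotic SMC1 cohesin subunit, read 4.85 in J1 control cells and 2.40 to 2.42 on the other 4 arrays, all 4 under the 40th percentile. Smc1b was kept through the J1 control array alone, so it had to be higher there than elsewhere, and no fold is given for it. The recombination factor Tex11 differed by -1.12, the germ cell helicase Ddx4 by -0.94, the gonadal transcription factor Dmrt1 by -0.88, the Piwi protein Piwil2 by -0.88, the intercellular bridge protein Tex14 by -0.85, and Stk31, a kinase-like protein of germ cells, by -0.64.

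**Figure D3:**
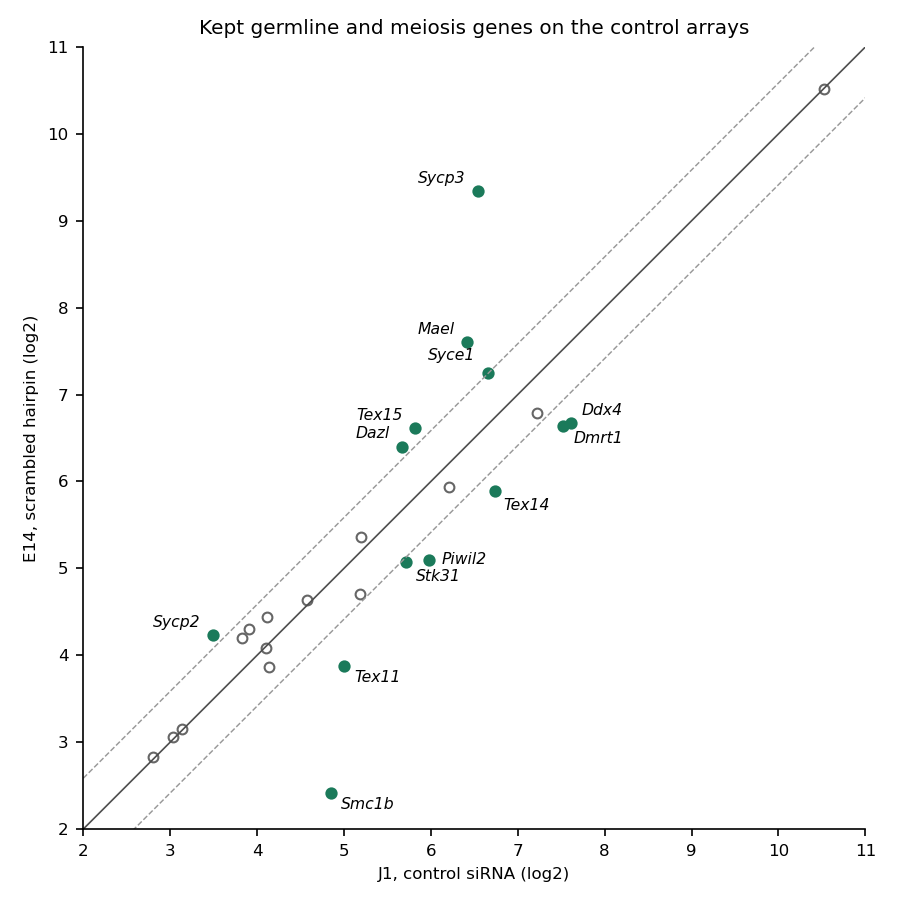
Log2 values of the 27 kept germline and meiosis genes in J1 control siRNA cells (horizontal axis) and E14 scrambled hairpin cells (vertical axis), with the line of equality and dashed lines at 1.5-fold. The 13 genes beyond 1.5-fold are filled and named, 6 above the lines and 7 below.

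In J1 cells with Tet1 siRNA, members beyond 1.5-fold were all lower. Of the 27 kept genes 11 were at least 1.5-fold lower (6.09% of all kept genes were) and 0 at least 1.5-fold higher (2.91% of all kept genes were). At 2-fold, 5 were lower, where 1.10% of all kept genes were. The median difference was -0.41, against -0.01 over all kept genes, and 20 of the 27 differences were below 0 (74.1%, against 50.4% of all kept genes). A filter on the mean over the arrays leaves out Smc1b, Rec8 and Spo11, each kept through 1 array alone. With it 10 of 24 members were at least 1.5-fold lower, and their median was -0.43. Among kept genes with a mean level of 4 to 8, a range chosen after seeing the data, 9 of 19 members and 8.30% of all genes were at least 1.5-fold lower.

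Of the 3 meiotic cohesin genes, Stag3, the meiotic stromalin subunit, read 7.22 in control and 5.83 in Tet1 siRNA cells, 2.62-fold lower, with both values above the median of the array. Rec8 read 3.03 and 3.04, at the percentile. Smc1b read 4.85 and 2.40, the latter under the 40th percentile, and was kept through the control array alone. Stag3 is thus the cohesin gene measured above the percentile on both arrays.

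Of the genes of recombination and the chromosome axis, Tex11 read 5.00 and 3.49, 2.85-fold lower. Hormad1, which binds unpaired chromosome axes, read 5.20 and 4.31. Dmc1, the meiotic recombinase, read 4.14 and 3.54, and its second probe set 4.13 and 3.89. Tex11 and Hormad1 were above the 40th percentile on both arrays, while Dmc1 just passed 1.5-fold in 1 of its 2 probe sets. Tex15 read 5.82 and 5.70, and Spo11, which makes the meiotic double-strand breaks, read 2.80 and 2.81, under the percentile.

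In the synaptonemal complex, Syce1 read 6.66 in control and 5.66 in Tet1 siRNA cells, 2-fold lower, and Sycp3 read 6.54 and 5.91. Syce2 differed by -0.45, Sycp1 read 4.12 and 4.25, and Sycp2 read 3.49 and 3.51. The other 3 genes of the complex thus stayed within 1.5-fold. Among fate regulators, Dmrt1 read 7.52 and 6.25, 2.41-fold lower, and Dazl 5.67 and 5.05. The second Dazl probe set differed by -0.45, in the same direction. Sohlh2, a transcription factor of early germ cells, read 6.21 and 5.80, and Ddx4 7.61 and 7.73.

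All 5 kept piRNA pathway genes were on the lower side, and 1 passed 1.5-fold. Piwil2 read 5.98 and 5.28. Mael read 6.42 and 5.93, a difference of -0.49. Tdrkh, a Tudor partner of Piwi proteins, differed by -0.38, Piwil4 by -0.13 and Asz1, a mitochondrial scaffold of piRNA production, by -0.08. Of the remaining germ cell genes, Tex14 read 6.74 and 5.98, and Stk31 5.71 and 5.63. Slc25a31, an ADP/ATP carrier of germ cells, differed by 0.07. Taf7l, a germ cell form of a TFIID subunit encoded on the X chromosome, had the largest positive difference of the set, 0.53 (3.91 and 4.44).

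Other cell state markers moved on the same arrays. Of the 10 stem cell markers, 4 were at least 1.5-fold lower with Tet1 siRNA and 0 higher, where 6.09% and 2.91% of all kept genes were. Of 10 trophectoderm markers 7 were kept, and 4 of these were at least 1.5-fold higher, where 2.91% of all kept genes were. The mean level of the 10 was 5.44 in J1 control and 6.09 in J1 Tet1 siRNA cells. Cdx2, Elf5 and Gata3 were under the 40th percentile on all arrays. The 13 fibroblast markers had a mean level of 3.87 and 3.88. The part of these shifts in the lower germline values was not tested, and in bulk RNA fewer cells of a type and less RNA per cell cannot be told apart.

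**Figure D4:**
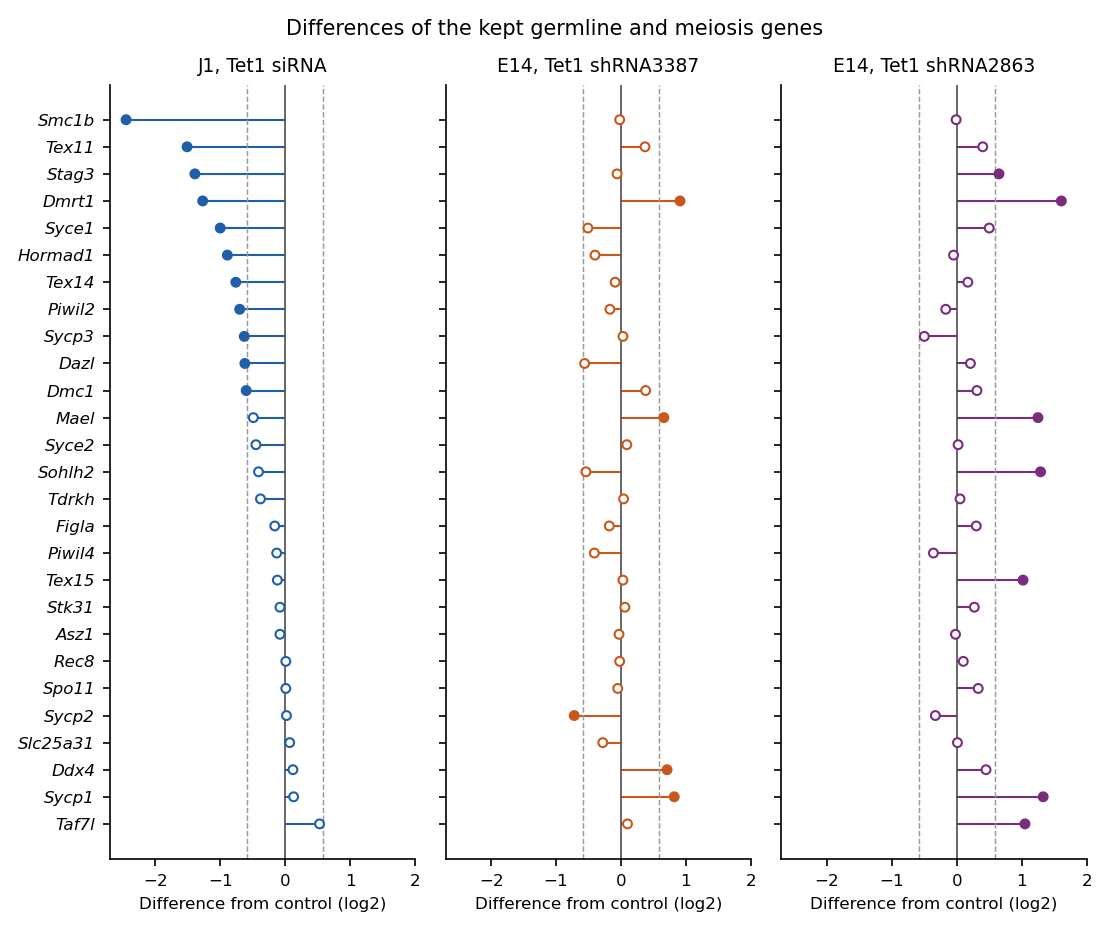
Log2 differences of the 27 kept germline and meiosis genes from the control of the same line (horizontal axes), ordered by the difference in J1 cells. Filled points are at or beyond 1.5-fold, marked by dashed lines: 11 lower with Tet1 siRNA in J1, 1 lower and 4 higher with shRNA3387, and 7 higher with shRNA2863.

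In E14 cells, members beyond 1.5-fold were all higher with shRNA2863 and lay in both directions with shRNA3387. With shRNA2863, 7 of 27 kept genes were at least 1.5-fold higher (3.63% of all kept genes were) and 0 at least 1.5-fold lower (3.26% were). At 2-fold 6 were higher, where 0.587% of all kept genes were. The median difference was 0.27, against -0.01 over all kept genes, and 20 of 27 differences were above 0 (74.1%, against 41.9% of all kept genes). Spo11 and Rec8 are among the 20 and were kept through the shRNA2863 array alone, so they had to be higher there. With the filter on the mean, which leaves both out, 7 of 24 members were at least 1.5-fold higher, and with no filter the median was 0.10. Among kept genes with a mean level of 4 to 8, 7 of 19 members and 5.79% of all genes were at least 1.5-fold higher. With shRNA3387, 4 of 27 were at least 1.5-fold higher (5.39% of all kept genes were) and 1 was lower (3.36% were), and the median was -0.02, equal to that of all kept genes. After quantile normalization 4 members were lower and 3 higher with shRNA3387, with 4.45% of all kept genes lower and 3.94% higher. After median centring 2.53% of all kept genes were lower and 6.81% higher. Both hairpins are set against the same scramble array, so the values of the depletions are given side by side.

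Dmrt1 was highest of the set in difference with both hairpins. On the scramble, shRNA3387 and shRNA2863 arrays it read 6.64, 7.55 and 8.25, which is 1.88-fold and 3.05-fold higher. Sohlh2 read 5.94, 5.40 and 7.23 on these arrays, lower with shRNA3387 by 0.54 and 2.45-fold higher with shRNA2863. The helicase gene Ddx4 read 6.67, 7.38 and 7.12. The fate regulators thus lay on both sides of the scramble array with shRNA3387. Dazl read 6.40, 5.84 and 6.61, differences of -0.56 and 0.21, and its second probe set by -0.37 and -0.01. Figla differed by -0.18 and 0.30.

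Sycp1, the transverse filament of the synaptonemal complex, read 4.44, 5.26 and 5.77 in that order of arrays, 1.77-fold and 2.51-fold higher. Both values lay above those of both J1 arrays. Sycp2 read 4.23, 3.51 and 3.90, and was the only kept member at least 1.5-fold lower with a hairpin. Syce1 read 7.25, 6.74 and 7.75, and Sycp3 9.34, 9.37 and 8.84. The members of this complex thus spread over both directions.

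Of the piRNA pathway, Mael read 7.60 on the scramble array and 8.26 and 8.85 on the depleted ones, 1.58-fold and 2.38-fold higher. The other 4 kept genes of the pathway stayed within 1.5-fold of the scramble array. Piwil2 read 5.10, 4.93 and 4.93, and Piwil4 differed by -0.41 and -0.36, Asz1 by -0.03 and -0.02 and Tdrkh by 0.04 and 0.05. Mael alone of the pathway was beyond 1.5-fold with the hairpins.

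Among recombination and axis genes, Tex15 read 6.61, 6.64 and 7.63 and was 2.03-fold higher with shRNA2863 alone. Tex11 read 3.88, 4.25 and 4.28, Dmc1 3.87, 4.25 and 4.18, and Hormad1 5.36, 4.96 and 5.31. Tex11 and Dmc1 were thus higher with both hairpins by less than 1.5-fold, and Hormad1 was not. Spo11 read 3.16 with shRNA2863 and 2.78 to 2.83 on the other arrays, and only the former was above its array's 40th percentile, of 3.09. In cohesin, Stag3 read 6.79, 6.73 and 7.44, and Smc1b 2.42, 2.40 and 2.41, under the 40th percentile on every E14 array. Taf7l read 4.30, 4.40 and 5.35, 2.07-fold higher with shRNA2863. Tex14 read 5.89, 5.80 and 6.06, and Stk31 5.07, 5.13 and 5.34.

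The hairpin arrays, compared with each other and without the shared scramble array, also differed in this set. With shRNA3387, 22 of the 27 kept genes were lower than with shRNA2863 (81.5%, against 57.8% of all kept genes) and 4 were higher. The 22 include Spo11 and Rec8. The members had a median difference of -0.29, against -0.01 over all kept genes. At least 1.5-fold lower with shRNA3387 were 8 genes, where 2.11% of all kept genes were, and 0 were at least 1.5-fold higher, where 3.53% were. The 8 were Sohlh2, Syce1, Tex15, Taf7l, Dazl, Stag3, Dmrt1 and Mael. Sohlh2 and Syce1 differed by -1.83 and -1.01. Tet1 itself differed by -0.82 between these arrays. Trophectoderm markers moved here too. With shRNA2863, 4 of 7 kept were at least 1.5-fold higher than with the scrambled hairpin, where 3.63% of all kept genes were. With shRNA3387, 2 were higher and 2 lower, where 5.39% and 3.36% of all kept genes were. Mean levels of the 10 markers were 4.83, 4.86 and 5.14 on the scramble, shRNA3387 and shRNA2863 arrays. The part of these markers in the differences between the hairpin arrays was not tested.

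**Figure D5:**
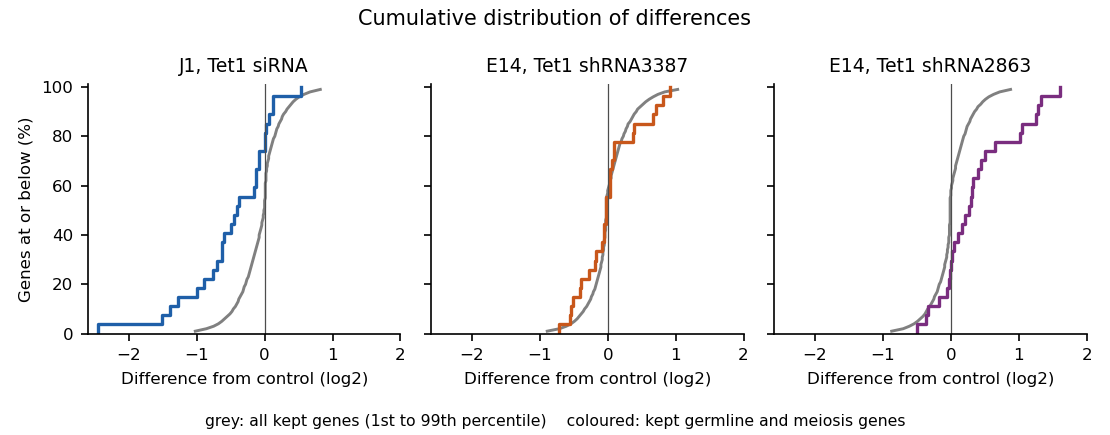
Cumulative share of genes (vertical axis, percent) at or below a given log2 difference from control (horizontal axes), for all kept genes in grey and the 27 kept germline and meiosis genes in colour. The coloured line lies to the left of the grey one in J1 (medians of -0.41 and -0.01), near it with shRNA3387 (-0.02 and -0.02), and to its right with shRNA2863 (0.27 and -0.01).

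Across the 3 depletions no member was called. A limma fit with a line term and a Tet1 term called 0 of 13619 genes at an adjusted p under 0.05 (0% of all kept genes). At an unadjusted p under 0.05 it found 1 of the 27 members and 6.87% of all kept genes. That member was Piwil4, with a pooled difference of -0.28 ± 0.09 (SE) and a limma adjusted p of 0.718. It rests on the brighter Piwil4 probe set. The other read 2.32 to 2.37, under the filter level on every array, so it cannot check that difference. It differed by -0.01, -0.04 and -0.01 in J1, with shRNA3387 and with shRNA2863. The next members by p were Piwil2 (-0.40 ± 0.16), Hormad1 (-0.51 ± 0.22), Ddx4 (0.38 ± 0.17) and Sycp1 (0.67 ± 0.31). Each of these had the same adjusted p of 0.718 in limma. The pooled difference of Dmrt1 was 0.18 ± 0.69, since its J1 and E14 differences had opposite signs.

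Whether the E14 effect departed from the J1 effect was tested as a difference of effects in limma. It called 0 of 13619 genes (0%), and reached an unadjusted p under 0.05 for 6 of the 27 members and 13.9% of all kept genes. The 6 were Smc1b, Tex11, Dmc1, Syce2, Piwil2 and Tdrkh, and each had a more positive effect in E14 than in J1. Smc1b was kept through the J1 control array alone, so its J1 difference had to be negative. It therefore adds nothing to that count or direction. Tex11 had a difference of effects of 1.90 ± 0.08 (SE), Dmc1 of 0.94 ± 0.09 and Syce2 of 0.50 ± 0.10, with limma adjusted p-values of 0.332, 0.332 and 0.344. These errors rest on the agreement of 2 hairpin arrays, and that of Smc1b (2.44 ± 0.04) on E14 values under the 40th percentile.

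Further genes of meiosis, from a list of 28 of which 14 were kept, were compared in the same way. In J1 1 was at least 1.5-fold lower and 1 higher, where 6.09% and 2.91% of all kept genes were. With each hairpin 2 of the 14 were at least 1.5-fold higher, where 5.39% of all kept genes were with shRNA3387 and 3.63% with shRNA2863, and 0 were lower. Meioc, which sustains the meiotic programme in early spermatocytes, led the list: it read 5.84 and 4.87 in J1 control and Tet1 siRNA cells, and 5.48, 6.44 and 7.02 on the scramble, shRNA3387 and shRNA2863 arrays. It was thus lower in J1 and higher with both hairpins. Syce3, a further central element protein, differed by 0.02, 0.61 and 0.27. The medians of the 14 genes were 0.01, 0.04 and 0.12 in J1, with shRNA3387 and with shRNA2863.

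Of 26 listed factors that keep germline genes off, 24 were kept. At least 1.5-fold lower were 1 in J1 and 1 with shRNA3387, where 6.09% and 3.36% of all kept genes were, and 0 were higher in any depletion. Max, the partner of Mga, differed by 0.08, -0.84 and -0.05 in J1, with shRNA3387 and with shRNA2863. The maintenance factor Uhrf1 differed by -0.22, 0.32 and 0.40, and the methyltransferase cofactor Dnmt3l by -0.39, -0.03 and -0.58. The methyltransferases Dnmt1, Dnmt3a and Dnmt3b differed by -0.08, -0.07 and -0.07 in J1, by 0.05, 0.11 and 0.53 with shRNA3387, and by 0.10, -0.30 and 0.13 with shRNA2863. The list's medians were -0.12, 0.06 and 0.08.

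Genes of primordial germ cell specification, many of them also pluripotency genes, were compared too. Of 15 kept, 9 were at least 1.5-fold lower with Tet1 siRNA, 2 with shRNA3387 and 4 with shRNA2863, where 6.09%, 3.36% and 3.26% of all kept genes were, and 0 were higher. Their medians were -0.63, -0.19 and -0.19. Ifitm1 differed by -1.36, -0.42 and -1.47, and Ifitm3 by -0.60, -0.64 and -0.55. With shRNA2863 this list and the meiotic set therefore had medians of opposite sign.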

How the data were processed

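The authors deposited log2 probe set values of 5 Affymetrix arrays, made from total RNA with One Cycle biotin labelling per the labels. How they were summarised and normalised is not given in the sources used here. A log2 scale was inferred from the range of 1.38 to 14.12. The values were used as deposited. Gene names came from the platform's annotation. The probe set with 1 symbol and the highest mean stood for its gene, and other probe sets served as a check. Genes were kept if 1 array or more showed them above its 40th percentile, taken without control probes. With 1 array per group, differences carry no test and are counted from 1.5-fold on. Fits across all kept genes were made in R 4.3.3 with limma 3.58.1 (trend on, two-sided tests, Benjamini-Hochberg adjustment): one with line and Tet1 terms (2 residual degrees of freedom), one of 4 means (1 residual degree of freedom). They were tested on simulated data with noise set to a small fraction of the genes' spread over these arrays. That check does not show their power in the real data. The p-values of the fits reflect just the spread among these 5 arrays. Motifs were searched in RefSeq windows. Members and lists were chosen with earlier results of these data known. Per-array values are given for kept members at least 1.5-fold different in a depletion or between controls, or among the 10 highest by mean. From each other list at most the 4 genes with the largest absolute mean difference over the depletions are named. The Tet and Dnmt genes and Uhrf1 are named always. Alternatives were quantile normalization, median centring, the median over probe sets, other filters, a 2-fold threshold, limma without trend or line term and leaving out each array.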

Additional observations from a re-analysis of the deposited data

Results flagged for a closer look

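Dmrt1, Tex11, Mael and Dmc1 were lower with Tet1 siRNA in J1 and higher with both hairpins in E14, each by at least 0.3 on the log2 scale in all 3 depletions. The same pattern was met by 1.13% of all kept genes, and both hairpins are set against 1 scramble array. The second Dmc1 probe set differed by -0.24 in J1, short of that size, and by 0.32 and 0.33 with shRNA3387 and shRNA2863. The mean E14 effect exceeded the J1 effect by 2.53 for Dmrt1, 1.90 for Tex11, 1.45 for Mael and 0.94 for Dmc1. In the limma test of this difference the adjusted p-values were 0.36 for Dmrt1, 0.332 for Tex11, 0.428 for Mael and 0.332 for Dmc1, so none was called. The genes were picked for this pattern, so that test is a description of its size and not independent evidence. No group holds the 4 or more samples that a search for outlying arrays needs.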

How the results depend on the processing

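Each difference rests on 1 array against 1 array, and no array could be left out of it. Of the recomputed counts and medians, 106 stayed within 1.5 times (counts) or 0.1 (medians) of the reported value and 10 did not. At a 2-fold threshold 5 members were lower in J1, where 1.10% of all kept genes were. With shRNA3387 0 were lower and 0 higher, where 0.653% and 1.15% of all kept genes were. Between the control arrays 2 were lower and 2 higher, where 4.84% and 3.52% were. Smc1b, kept through the J1 control array alone, is among the 5 and among the 2 lower between controls. After quantile normalization 4 members were at least 1.5-fold lower with shRNA3387 in place of 1, as Dazl (-0.69), Sohlh2 (-0.69) and Syce1 (-0.62) joined Sycp2. In the same setting 3 were higher in place of 4, as Mael (0.57) fell short of 1.5-fold. Between the controls Stk31 (-0.44) fell short after quantile normalization and Syce1 (0.52) after median centring. With no filter, which adds the 6 genes under the 40th percentile, the medians were -0.14 in J1 and 0.10 with shRNA2863. Restricted to a mean level of 4 to 8, an alternative chosen after seeing the data, 0 members were lower with shRNA3387 and the shRNA2863 median was 0.40. As the median over probe sets, the differences between the controls and in J1 were 0.01 and -0.54 for Dazl, and -0.42 in J1 for Dmc1. No paired analysis was possible because the groups hold 1 array each. Limma called 0 genes under every alternative run, and with 1 array left out the pooled difference changed sign for 11 of 20 named members.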

Other observations

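Genes of later germ cells were mostly under the 40th percentile. Of 18 haploid spermatid genes 8 were kept, and 7 were above the 40th percentile on each array. In the depletions 1 was at least 1.5-fold different, higher in J1, where 2.91% of all kept genes were. It was Acrv1, an acrosomal protein, which read 3.07 with control and 3.83 with Tet1 siRNA in J1 cells. The medians of the 8 were 0.01, -0.04 and 0.00 in J1, with shRNA3387 and with shRNA2863.

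Of 13 measured oocyte genes 7 were kept. At least 1.5-fold lower were 2 in J1, 1 with shRNA3387 and 2 with shRNA2863, and 0 were higher. Of all kept genes 6.09%, 3.36% and 3.26% were at least 1.5-fold lower in that order. The 2 with shRNA2863 were Ooep and Gdf3, which read 9.70 and 10.33 in E14 scramble cells. Ooep, a subunit of the maternal complex of the oocyte cortex, read 9.11 and 8.13 in J1 control and Tet1 siRNA cells and 9.70, 8.89 and 9.0 in E14 cells with the scrambled hairpin, shRNA3387 and shRNA2863. The zona pellucida gene Zp3 differed by -0.89, -0.48 and -0.47.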
